A study of Mus musculus with 24 samples.

Results

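The genes of the phagocyte NADPH oxidase and of the superoxide dismutases were followed in bone marrow-derived macrophages through 24 h of stimulation with LPS and interferon-γ. The 7 genes were Cybb, Cyba, Ncf1, Ncf4 and Rac2, which encode oxidase subunits, and the dismutase genes Sod1 and Sod2. Members were all probes annotated to these genes that had a detection p under 0.01 on at least 3 of the 24 arrays. This gave 10 of the 11 annotated probes, out of 16498 tested of 45281 on the array. Each of the 7 genes kept at least 1 probe, and they were 7 of 8875 genes with a tested probe. The remaining probe, the third of Sod1, was detected on 0 arrays and was not tested. The macrophages came from adult female C57bl/6J mice. All groups carried the floxed Gch1 allele, whose gene encodes the first enzyme of tetrahydrobiopterin (BH4) synthesis. The control animals were Gch1fl/fl (named GCHfl/fl in the labels and wild-type by the study), and the others were Gch1fl/flTie2cre (GCHfl/flTie2cre). Tie2cre deletes the floxed allele in endothelial and bone marrow-derived cells. RNA was taken just before stimulation (0 h) and at 2, 8 and 24 h from 3 wild-type animals (2, 3 and 6) and 3 Gch1fl/flTie2cre animals (1, 4 and 5), with 1 array for each animal and time. The comparisons asked how each gene followed stimulation and whether the genotypes differed.

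The phagocyte NADPH oxidase passes electrons from NADPH to oxygen and so makes superoxide. Its membrane part is a heterodimer of gp91phox, the catalytic subunit encoded by Cybb, and p22phox, encoded by Cyba, and it becomes active when the cytosolic subunits p47phox (Ncf1) and p40phox (Ncf4) and the GTPase Rac2, among others, join it. Superoxide dismutases convert superoxide to hydrogen peroxide, the copper and zinc enzyme of Sod1 mainly in the cytosol and the manganese enzyme of Sod2 in mitochondria.

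Values are log2 intensities after background correction and quantile normalization, and a difference is given as estimate ± standard error. A probe passed the test where limma gave an adjusted p under 0.05 together with a fold over 1.5. The model was fitted over all 16498 tested probes with a random effect for the animal, and n is 3 arrays in each group throughout. A probe's level cannot be compared with that of another probe. Mean intensity ran from 593 to 1750 over the 24 arrays and 27.0 to 33.3% of probes were detected. The brightest Gch1 probe was lower in Gch1fl/flTie2cre macrophages by a log2 difference of −2.55 ± 0.32 before stimulation (limma adjusted p = 0.000606), −2.23 at 2 h, −2.60 at 8 h and −1.86 at 24 h. Its place relative to the deleted exons was not established. Of 8 macrophage markers, 7 had a probe and these 7 were detected on all 24 arrays, with Lyz2 at 14.92 to 15.54 and Adgre1 at 14.46 to 15.41. T cell, fibroblast and erythroid markers with a probe were detected on 0 arrays. Of the B cell, endothelial and dendritic cell markers, Cd79b was detected on 1 array, Kdr on 8, Pecam1 on 2 and Ccr7 on 2, and the other 6 with a probe on 0. The summed endothelial level was 204 to 244 at 0 h and 276 to 382 at 8 h, and the dendritic cell level 166 to 201 and 214 to 268. Of 8 neutrophil markers, 6 were detected on at least 1 array. Their summed linear level was 1230 to 7950 at 0 h, 1610 to 11500 at 2 h, 15100 to 43000 at 8 h and 10200 to 35100 at 24 h over both genotypes. Mpo was detected on 0 arrays and Elane on 2 of 24, while S100a8, which macrophages can also express, was detected on all 24. S100a9 was detected on 15 arrays, Camp on 14, Ltf on 10 and Ngp on 10. The endothelial and dendritic cell sums came largely from probes not well above background. For scale, the fibroblast markers, detected on 0 arrays, summed to 159 to 227. The endothelial, dendritic cell and neutrophil sums moved with time in both genotypes, as did several oxidase probes. The part of these sums in those results was not tested. In such bulk RNA, fewer cells of a type and less RNA per cell cannot be told apart. Deviations from the group means of animals 5 and 6 correlated with each other at r = 0.759, 0.756, 0.73 and 0.809 at 0, 2, 8 and 24 h. Their correlations with every other animal were below 0, but the 3 deviations of a group sum to 0, which by itself favours such values. Because animals 5 and 6 correlated with each other, several results are also given without them.

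Promoter sequences from RefSeq (GRCm38.p6) were matched for 5 of the 7 genes, Cybb, Cyba, Ncf1, Sod1 and Sod2. The stretches below end at the base before the start that the RefSeq promoter table gives for each gene. For Cybb and Ncf1 the annotated gene reaches 18442 and 3 bases upstream of that start. They are shown because these genes differed in their course after the same stimulus, and capitals mark matches to the motifs searched on both strands over 250 bases.
Cybb, chrX:9469325-9469574, minus strand: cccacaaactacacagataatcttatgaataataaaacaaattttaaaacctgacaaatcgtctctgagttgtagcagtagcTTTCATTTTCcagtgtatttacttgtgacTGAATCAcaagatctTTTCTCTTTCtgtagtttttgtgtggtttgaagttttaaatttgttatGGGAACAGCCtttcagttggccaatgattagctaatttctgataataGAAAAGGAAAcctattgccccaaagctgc
Ncf1, chr5:134229626-134229875, minus strand: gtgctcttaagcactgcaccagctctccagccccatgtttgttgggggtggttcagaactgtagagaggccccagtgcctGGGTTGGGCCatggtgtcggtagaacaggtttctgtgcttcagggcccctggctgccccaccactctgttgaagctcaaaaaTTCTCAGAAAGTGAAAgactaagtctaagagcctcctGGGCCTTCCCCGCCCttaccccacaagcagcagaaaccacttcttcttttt
Sod1, chr16:90220512-90220761, plus strand: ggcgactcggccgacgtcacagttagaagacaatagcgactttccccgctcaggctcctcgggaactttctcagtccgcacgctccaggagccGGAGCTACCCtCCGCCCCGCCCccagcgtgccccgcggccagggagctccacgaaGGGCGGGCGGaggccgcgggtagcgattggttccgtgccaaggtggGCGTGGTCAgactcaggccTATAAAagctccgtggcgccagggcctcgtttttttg
Sod2, chr17:13007589-13007838, plus strand: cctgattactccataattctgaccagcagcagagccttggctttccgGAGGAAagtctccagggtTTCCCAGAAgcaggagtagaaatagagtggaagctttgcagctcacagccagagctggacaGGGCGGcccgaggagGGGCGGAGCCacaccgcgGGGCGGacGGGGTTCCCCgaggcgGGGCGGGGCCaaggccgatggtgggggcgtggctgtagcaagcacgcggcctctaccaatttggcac
Matches to the interferon-stimulated response element (ISRE), searched as GAAA and a second GAAA with any 2 bases between, were found 3 times before the start of Cybb and 1 time before that of Ncf1, against 2.98% of 32851 mouse promoters of the same length that held at least 1. In Ncf1 this match overlapped the letters of the interferon-γ activated site (GAS), TTCNNNGAA, held by 7.02% of promoters, so that both fell in the run TTCTCAGAAAGTGAAA. The Sod2 stretch also held the GAS letters. It held the palindromic NF-kB match GGGGTTCCCC, where NF-kB was searched as GGG and CC with any 5 bases between and found in 45.8% of all promoters. NF-kB letters also matched 4 times in Ncf1 and Cyba and 1 time in Cybb and Sod1, counting both strands. Sp1, searched as GGGCGG and found in 32.7% of promoters, matched 4 times before Sod2, 2 of these inside other NF-kB matches, and 4 times before Sod1, with 2 matches in Cyba and 1 in Ncf1. The Sod1 stretch further held TATAAA, as did 12.4% of promoters. It had 1 match to the antioxidant response element, searched as TGACNNNGC and held by 10.2%. Cybb held 1 match to AP-1, TGANTCA, as did 6.75% of promoters. Sod2 held 1 copy of the PU.1 core, GAGGAA, as did 23.3%. A match is a string of letters and does not show that a factor binds.

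Cybb, the gene of the catalytic subunit, was read by 2 probes that moved in opposite directions at 24 h. On the probe made to its RefSeq mRNA (ILMN_2716935), wild-type arrays read 10.74, 11.05 and 9.99 at 0 h, then 10.64, 11.05 and 10.86 at 2 h, 11.26, 11.32 and 10.97 by 8 h, and 11.40, 11.58 and 11.25 by 24 h. The 24 h values all lay above the 0 h values. Gch1fl/flTie2cre arrays read 10.61, 10.73 and 10.63 at 0 h, then 11.09, 11.35 and 11.18 at 2 h, 11.38, 11.64 and 11.13 by 8 h, and 11.39, 11.45 and 12.31 by 24 h. In this genotype every stimulated array lay above every 0 h array, and the highest value was that of animal 5 at 24 h. In wild-type cells Cybb rose by 0.82 ± 0.23 at 24 h (limma adjusted p = 0.00979), higher in 3 of 3 animals, while the difference at 8 h was 0.59 ± 0.23 (limma adjusted p = 0.0556). In Gch1fl/flTie2cre cells it rose by 0.73 ± 0.23 at 8 h (limma adjusted p = 0.0188) and by 1.06 ± 0.23 at 24 h (limma adjusted p = 0.00146), again in 3 of 3 animals. Without animal 6 the wild-type rise at 24 h was 0.60 and no longer passed (limma adjusted p = 0.0923). The Gch1fl/flTie2cre rise at 8 h did not pass without animal 1 or without animal 4, and that at 24 h passed under each of the 18 alternative settings.

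The other Cybb probe (ILMN_2582791), annotated to a cDNA clone, read 10.27, 10.78 and 10.21 in wild-type cells at 0 h and 9.71, 10.00 and 9.06 at 24 h. Here the 24 h arrays lay below all 0 h arrays. The difference was −0.83 ± 0.28 (limma adjusted p = 0.0261), lower in 3 of 3 animals, and it did not pass under 6 of the 18 alternatives, among them without animal 2, 3 or 6. Gch1fl/flTie2cre cells read 10.27, 10.60 and 9.80 at 0 h and 9.96, 9.67 and 9.92 at 24 h, which overlapped, with a difference of −0.37 ± 0.28 (limma adjusted p = 0.323). Without animal 5 it was −0.62 (limma adjusted p = 0.148), without animal 4 −0.09, and it passed with animals 1 to 4 only at −0.62 (0.0239) and with array weights at −0.65 (0.00293). Between 2 and 8 h this probe fell, at −0.74 in wild-type and −0.81 in Gch1fl/flTie2cre macrophages (limma adjusted p = 0.0417 and 0.025), calls that were lost under 9 and 5 of the 18 alternatives. Over the 24 arrays the Cybb probes had r = −0.242. Which transcript the clone probe reads was not established.

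Cyba, whose product p22phox stabilizes the catalytic subunit in the membrane, did not pass the test against 0 h at any time. Its probe (ILMN_2806700) read 14.97, 15.14 and 14.87 in wild-type cells at 0 h, then 14.75, 14.77 and 14.75 at 2 h, 14.64, 14.89 and 14.76 by 8 h, and 15.47, 15.40 and 15.14 by 24 h. Gch1fl/flTie2cre cells read 14.84, 15.19 and 14.82, then 14.74, 14.70 and 14.81, then 14.72, 14.81 and 14.84, and 15.27, 15.23 and 15.07 at 24 h. In both genotypes all 24 h arrays lay above all 8 h arrays. The 24 h minus 8 h difference was 0.57 ± 0.14 in wild-type cells (limma adjusted p = 0.00313), a fold of 1.49, and 0.40 ± 0.14 in Gch1fl/flTie2cre cells (limma adjusted p = 0.0286), both below the minimum fold. The probe's raw intensity was 38.8 to 92.0% of the highest intensity on its array, and the part of this in the small differences was not tested. On the values normalized by the authors, the 24 h minus 8 h differences were −0.04 and 0.08, and the 24 h minus 0 h difference in wild-type cells was −0.05 in place of 0.34.

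**Figure D1:**
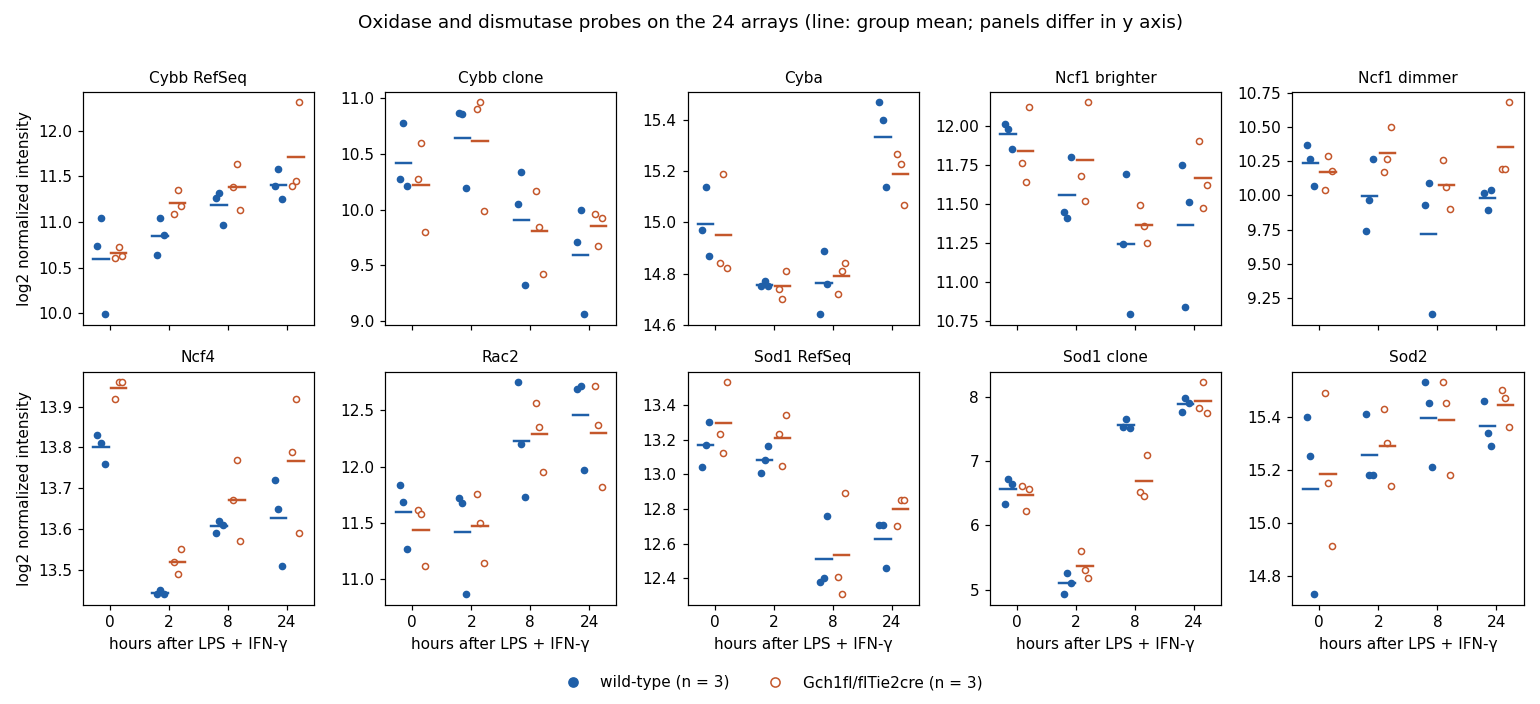
Log2 normalized intensity (y axis, a scale of its own in each panel) of the 10 tested probes against time after LPS and interferon-γ (x axis, h), with 1 point per array, filled for wild-type and open for Gch1fl/flTie2cre, and a line at each mean of 3 arrays. In both genotypes the 24 h arrays of Rac2 lay above, and the 8 h arrays of the Sod1 RefSeq probe below, all 0 h arrays. On the Sod1 clone probe the 8 h arrays of the genotypes did not overlap. Nor did those of Ncf4 at 0 and 2 h, the Cybb RefSeq probe at 2 h and the dimmer Ncf1 probe at 24 h.

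Of the cytosolic subunits, Ncf1 was lower at 8 h in wild-type cells on its brighter probe (ILMN_2829457). That probe, for the gene of p47phox, which carries the cytosolic complex to the membrane, read 12.01, 11.98 and 11.85 in wild-type cells at 0 h, then 11.45, 11.41 and 11.80 at 2 h, 11.24, 11.69 and 10.79 by 8 h, and 11.75, 10.84 and 11.51 by 24 h. All stimulated wild-type arrays lay below the 0 h arrays. The fall at 8 h was −0.71 ± 0.24 (limma adjusted p = 0.0254), lower in 3 of 3 animals. It did not pass without animal 2 (limma adjusted p = 0.121), without animal 6 (0.163), or with animals 1 to 4 only (0.101). Gch1fl/flTie2cre cells read 11.76, 11.64 and 12.12 at 0 h, then 11.68, 11.52 and 12.15 at 2 h, 11.49, 11.36 and 11.25 by 8 h, and 11.90, 11.47 and 11.62 by 24 h. Their 8 h arrays lay below all 0 h arrays, with a difference of −0.47 ± 0.24 (limma adjusted p = 0.121). The other Ncf1 probe (ILMN_1228585), whose 24 values ran from 9.13 to 10.68, passed in 0 comparisons. Its largest response was −0.52 ± 0.21, in wild-type cells at 8 h (limma adjusted p = 0.0605). The Ncf1 probes had r = 0.693 over the 24 arrays.

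Ncf4, the gene of p40phox, which binds a membrane phosphoinositide, had little spread among replicates. Wild-type arrays (ILMN_2743013) read 13.83, 13.81 and 13.76 at 0 h, then 13.44, 13.45 and 13.44 at 2 h, 13.59, 13.62 and 13.61 by 8 h, and 13.72, 13.65 and 13.51 by 24 h. Gch1fl/flTie2cre arrays read 13.92, 13.96 and 13.96 at 0 h, then 13.52, 13.49 and 13.55 at 2 h, 13.67, 13.77 and 13.57 by 8 h, and 13.79, 13.92 and 13.59 by 24 h. In both genotypes the 2 h arrays were below all arrays of 0 and 8 h. The 2 h difference was −0.36 ± 0.12 in wild-type (limma adjusted p = 0.0439) and −0.42 ± 0.12 in Gch1fl/flTie2cre cells (limma adjusted p = 0.0165). Both were smaller than the minimum fold, at 1.28 and 1.34. On the values normalized by the authors the wild-type arrays at 24 h spread more, at 13.08, 13.42 and 13.50. There the wild-type 24 h minus 8 h difference was −0.33 (limma adjusted p = 0.0177), below the minimum fold, in place of 0.02.

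Rac2, the haematopoietic Rac GTPase that activates the assembled oxidase, rose late in both genotypes. Its probe (ILMN_2600678) read 11.84, 11.69 and 11.27 in wild-type cells at 0 h, then 11.72, 11.68 and 10.87 at 2 h, 12.75, 12.20 and 11.73 by 8 h, and 12.69, 12.72 and 11.97 by 24 h. Gch1fl/flTie2cre cells read 11.62, 11.58 and 11.12 at 0 h, then 11.76, 11.50 and 11.15 at 2 h, 12.57, 12.35 and 11.95 by 8 h, and 12.72, 12.37 and 11.82 by 24 h. The 0 and 2 h arrays overlapped, and the 24 h arrays lay above all 0 h arrays. Rac2 rose at 24 h by 0.86 ± 0.26 among wild-type animals (limma adjusted p = 0.013) and by 0.86 ± 0.26 among Gch1fl/flTie2cre animals (limma adjusted p = 0.0124), in 3 of 3 animals of each. At 8 h the rise was 0.85 ± 0.26 in Gch1fl/flTie2cre cells (limma adjusted p = 0.0133), and the wild-type difference was 0.62 ± 0.26 (limma adjusted p = 0.0649). The wild-type rise at 24 h did not pass without animal 3 (limma adjusted p = 0.112), nor did either Gch1fl/flTie2cre rise without animal 1 or without animal 4. With animals 1 to 4 only, the wild-type difference at 8 h was 0.71 and passed (limma adjusted p = 0.00714). From 2 to 8 h Rac2 rose by 0.80 in wild-type animals and 0.82 in Gch1fl/flTie2cre animals (limma adjusted p = 0.0169 and 0.0147).

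Sod1 fell at 8 h in both genotypes on the probe made to its RefSeq mRNA (ILMN_2752552). Wild-type arrays read 13.04, 13.17 and 13.30 at 0 h, then 13.01, 13.08 and 13.16 at 2 h, 12.38, 12.40 and 12.76 by 8 h, and 12.71, 12.71 and 12.46 by 24 h. Gch1fl/flTie2cre arrays read 13.23, 13.12 and 13.53 at 0 h, then 13.23, 13.05 and 13.34 at 2 h, 12.41, 12.31 and 12.89 by 8 h, and 12.70, 12.85 and 12.85 by 24 h. All arrays of 8 and 24 h lay below all arrays of 0 and 2 h within each genotype. The fall at 8 h was −0.66 ± 0.16 in wild-type (limma adjusted p = 0.00315) and −0.75 ± 0.16 in Gch1fl/flTie2cre cells (limma adjusted p = 0.000948), in 3 of 3 animals of each. At 24 h the differences were −0.54 and −0.49 (limma adjusted p = 0.0107 and 0.0192), with folds of 1.46 and 1.41 under the minimum. On the values normalized by the authors the 8 h differences were −0.52 and −0.56, below the minimum fold, and without animal 3 the wild-type fall had a limma adjusted p of 0.0572.

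The second tested Sod1 probe (ILMN_2581247), annotated to a cDNA clone and detected on 13 of 24 arrays, ran the other way at 24 h. Wild-type arrays read 6.33, 6.73 and 6.64 at 0 h, then 4.93, 5.26 and 5.11 at 2 h, 7.53, 7.65 and 7.52 by 8 h, and 7.77, 7.99 and 7.90 by 24 h. Gch1fl/flTie2cre arrays read 6.62, 6.22 and 6.56 at 0 h, then 5.60, 5.31 and 5.18 at 2 h, 6.52, 6.46 and 7.09 by 8 h, and 7.83, 8.23 and 7.75 by 24 h. It was not well above background on any 2 h array, so the 2 h values are bounds. At 0 h it was detected on 2 of 3 wild-type and 1 of 3 Gch1fl/flTie2cre arrays, so differences from 0 h rest on a level close to background. Against 2 h, bounds were taken on background-corrected levels that were not normalized between arrays, so they also carry differences in array brightness. In wild-type cells the level was at least 1.75-fold higher at 8 h and at least 3.53-fold higher at 24 h on this scale. In Gch1fl/flTie2cre cells it was at least 3.77-fold higher at 24 h. At 24 h the raw intensity was 873 in wild-type animal 2, against 427 and 280 in animals 3 and 6. Against 0 h the probe rose by 1.32 ± 0.18 at 24 h in wild-type (limma adjusted p = 1.78e-05) and by 1.47 ± 0.18 in Gch1fl/flTie2cre cells (limma adjusted p = 5.46e-06), in 3 of 3 animals of each, and it passed under each alternative, at 0.61 and 0.68 without background correction. At 8 h it rose by 1.00 ± 0.18 in wild-type cells (limma adjusted p = 0.00032), while the difference in Gch1fl/flTie2cre cells was 0.23 ± 0.18 (limma adjusted p = 0.346). The wild-type difference at 8 h was 0.40 on the values normalized by the authors and 0.44 without background correction, both below the minimum fold. The differences at 2 h, −1.47 for wild-type and −1.10 for Gch1fl/flTie2cre cells, passed, but on the values normalized by the authors they were −0.53 and −0.35, below the minimum fold. The Sod1 probes had r = −0.553 over the 24 arrays, and which transcript the clone probe reads was not established.

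**Figure D2:**
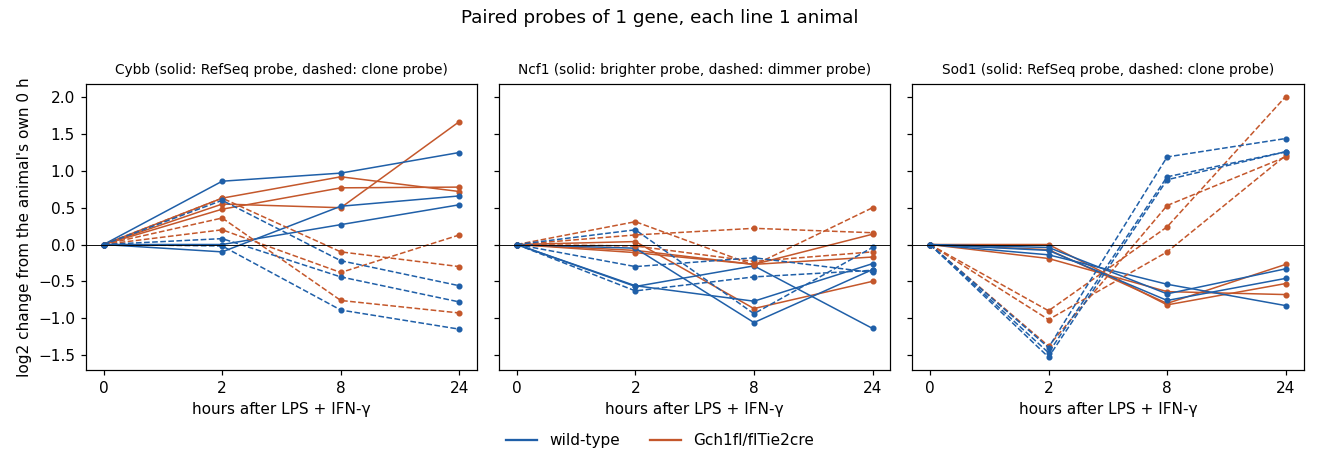
Log2 change from the animal's own 0 h array (y axis) against time (x axis, h) for the genes with more than 1 tested probe, each line 1 animal, coloured by genotype. By 24 h the RefSeq probes of Cybb and Sod1 had moved opposite to their clone probes, by 0.82 against −0.83 for Cybb and −0.54 against 1.32 for Sod1 in wild-type cells, while the Ncf1 probes overlapped.

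Sod2, the mitochondrial dismutase gene known in other cells as a target of NF-kB, passed the test in 0 comparisons. Its probe (ILMN_2650280) read 15.40, 15.25 and 14.73 in wild-type cells at 0 h, then 15.41, 15.18 and 15.18 at 2 h, 15.53, 15.45 and 15.21 by 8 h, and 15.46, 15.34 and 15.29 by 24 h. Gch1fl/flTie2cre cells read 15.49, 15.15 and 14.91 at 0 h, then 15.43, 15.30 and 15.14 at 2 h, 15.53, 15.45 and 15.18 by 8 h, and 15.50, 15.47 and 15.36 by 24 h. The stimulated arrays overlapped the 0 h arrays at every time. The largest difference from 0 h was 0.27 ± 0.16 at 8 h in wild-type cells (95% interval −0.07 to 0.61, limma adjusted p = 0.203). Its 8 group means spanned 0.32, a smaller span than that of all but 1.22% of tested probes, against a median span of 1.18. The probe's raw intensity was 47.2 to 91.8% of the highest on its array, and its part in the narrow span was not tested. On the values normalized by the authors the differences at 2 h in Gch1fl/flTie2cre cells and at 8 h in wild-type cells were 0.72 and 0.53 (limma adjusted p = 0.0653 and 0.143) in place of 0.11 and 0.27. On those values the 8 h difference in Gch1fl/flTie2cre cells was 0.62 in place of 0.20. These differences were larger than the span of 0.32 given above. At 24 h in wild-type cells the difference was −0.13 in place of 0.24.

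Counted over the 10 probes, few members passed at 2 h and more passed at 8 and 24 h, as over the whole array. In wild-type cells 0 rose and 1 fell at 2 h, against 6.95% and 8.39% of all tested probes. At 8 h 1 rose and 2 fell, against 14.7% and 16%, and at 24 h 3 rose and 1 fell, against 16.5% and 15.8%. At each of these times 1 gene was counted in both directions through its 2 probes, Sod1 at 8 h and Cybb at 24 h. In Gch1fl/flTie2cre cells 0 rose and 1 fell at 2 h, against 6.75% and 9.68%. At 8 h 2 rose and 1 fell, against 15.9% and 17.9%, and at 24 h 3 rose and 0 fell, against 16.8% and 15.8%. The median member difference in wild-type cells was −0.21, −0.21 and 0.03 at 2, 8 and 24 h, beside −0.08, −0.03 and 0.03 over all tested probes. In Gch1fl/flTie2cre cells it was −0.01, −0.13 and 0.21, beside −0.07, −0.04 and 0.01. From 2 to 8 h 3 probes passed among wild-type and 4 among Gch1fl/flTie2cre cells, against 35.9% and 38.1% of all probes. From 8 to 24 h 0 passed in wild-type (1 at an unadjusted p under 0.05, Cyba, whose limma adjusted p also passed) and 1 in Gch1fl/flTie2cre cells, against 28.1% and 30.8%.

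**Figure D3:**
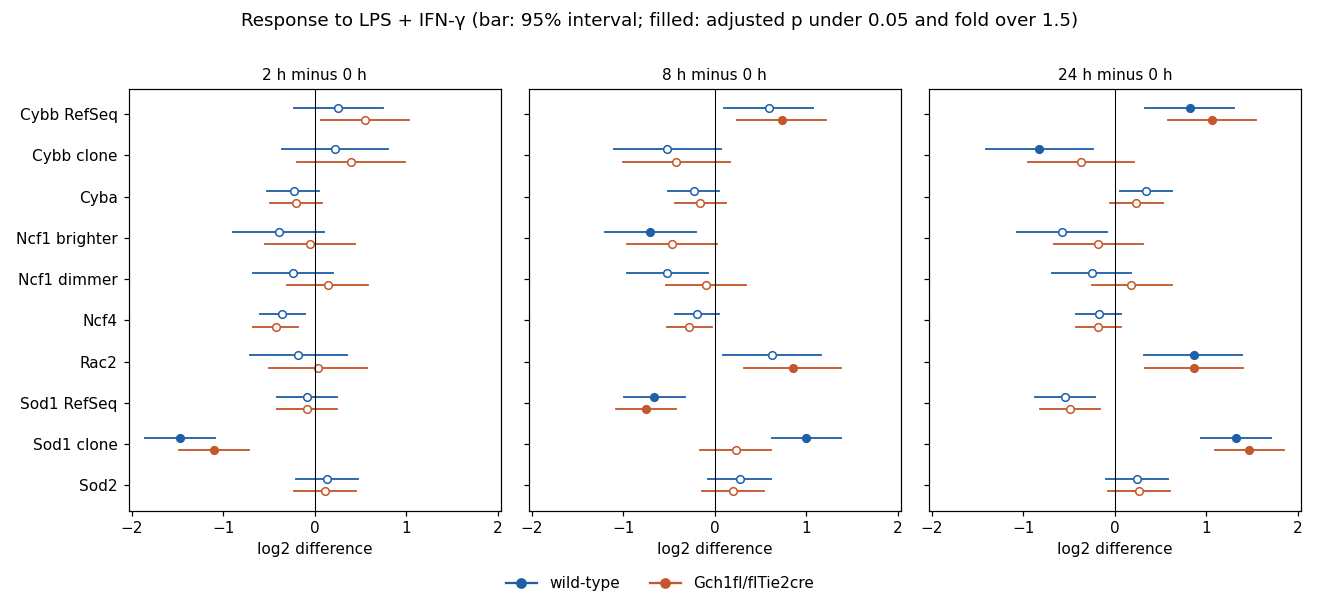
Log2 difference from 0 h with its 95% interval (x axis) for each probe (y axis) at 2, 8 and 24 h, by genotype, with filled points where the probe passed the test. Rac2 and the RefSeq probe of Cybb lay above 0 at 24 h in both genotypes, at 0.86 and 0.86 and at 0.82 and 1.06.

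Between the genotypes, 0 of the 10 probes passed at 0, 2, 8 or 24 h, against 0.0242%, 0.0242%, 0.0182% and 0.321% of all tested probes. At an unadjusted p under 0.05 the member counts were 0, 0, 1 and 0, against 1.65%, 2.57%, 4.61% and 9.36% of all tested probes. The difference of the responses passed for 0 members at 2, 8 and 24 h, against 0%, 0% and 0.0121% of all probes, with 0, 1 and 0 at an unadjusted p under 0.05, against 1.36%, 2.21% and 5.79%. Over the 10 probes together, the 95% intervals of the genotype difference reached from −0.82 to 0.58 at 0 h, −0.65 to 0.88 at 2 h, −1.28 to 0.83 at 8 h and −0.73 to 0.88 at 24 h. For the oxidase genes the estimates at 24 h were 0.31 ± 0.25 for the Cybb RefSeq probe, −0.15 ± 0.14 for Cyba, 0.30 ± 0.25 for the brighter Ncf1 probe, 0.14 ± 0.13 for Ncf4 and −0.16 ± 0.27 for Rac2. The Cybb estimate was −0.07 with animals 1 to 4 only, and that of Rac2 was 0.08 without animal 5. For Cyba it was 0.18 on the values normalized by the authors. Under the alternatives the Ncf1 and Ncf4 estimates kept their sign, at lowest 0.03 and 0.06. Sod2 differed by 0.08 ± 0.17 and the Sod1 RefSeq probe by 0.17 ± 0.17 at that time.

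The one probe with an unadjusted p under 0.05 was the Sod1 clone probe at 8 h. Its Gch1fl/flTie2cre arrays, at 6.52, 6.46 and 7.09, all lay below the wild-type arrays, at 7.53, 7.65 and 7.52, and it was detected on 1 of the former and 3 of the latter. The difference was −0.87 ± 0.20 (limma unadjusted p = 0.00023, adjusted p = 0.232), and the difference of the responses was −0.77 ± 0.26 (limma unadjusted p = 0.00713, adjusted p = 1). It passed without animal 5 at −1.07 (limma adjusted p = 0.0477) and with animals 1 to 4 only at −1.10 (0.0476), and with array weights at −1.01 (0.0167). On the values normalized by the authors and without background correction it was −0.39, below the minimum fold (limma adjusted p = 0.842 and 0.538). The RefSeq probe of the same gene differed by 0.03 ± 0.17 at 8 h (limma adjusted p = 0.999). Arrays of the genotypes were also separate for Ncf4 at 0 and 2 h, the Cybb RefSeq probe at 2 h and the dimmer Ncf1 probe at 24 h. The share of all tested probes with such separation was not determined.

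**Figure D4:**
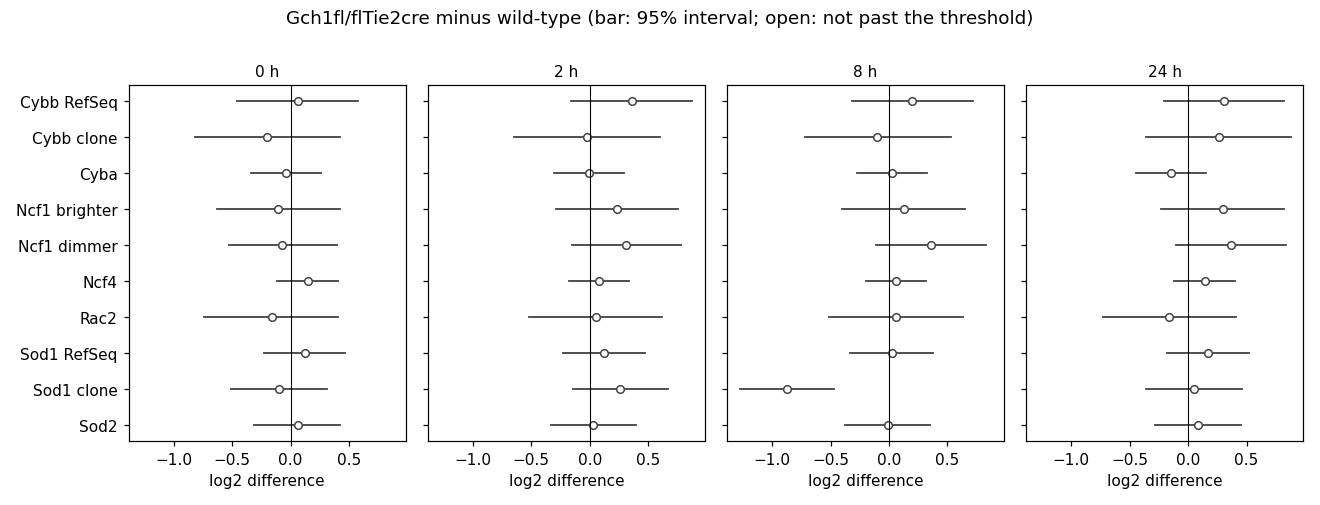
Log2 difference of Gch1fl/flTie2cre minus wild-type with its 95% interval (x axis) for each probe (y axis) at 0, 2, 8 and 24 h, with open points because 0 probes passed the test. All intervals include 0 but that of the Sod1 clone probe at 8 h, at −0.87.

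Animals 5 and 6, whose deviations correlated over all tested probes, stood apart on some members too. The share of all tested probes with counts like those below was not determined. Rac2 was lowest in animal 5 or 6 in 8 of the 8 groups of genotype and time, with differences of −0.48 to −0.83 from the mean of the other animals. The Cybb clone probe was lowest in these animals in 7 of 8 groups and Sod2 in 7 of 8, while the Sod1 RefSeq probe was highest in 6 of 8. The remaining member probes were lowest there in 3 or 4 of 8 groups. Each genotype holds 1 of these animals, so the set is not confounded with genotype, and with it as a fixed term 0 members passed between genotypes at any time.

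**Figure D5:**
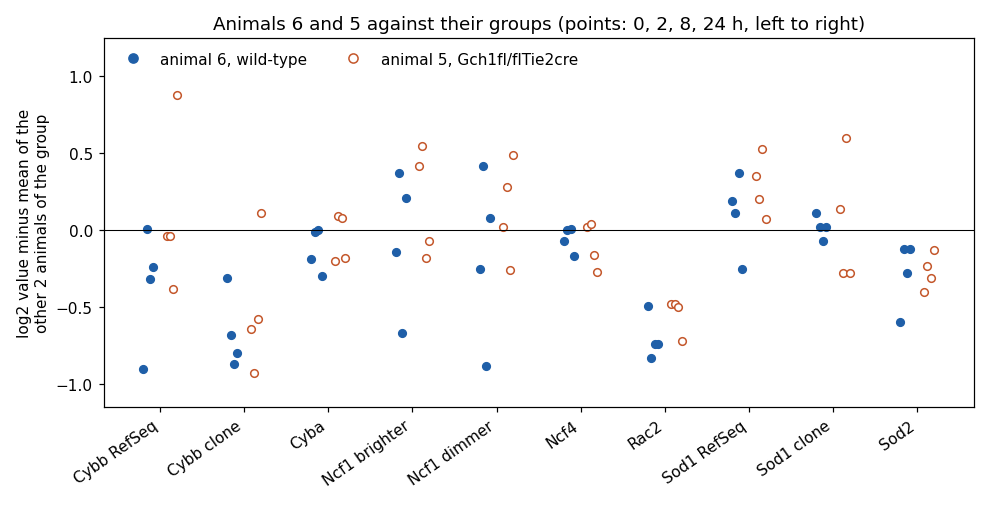
Log2 value of animal 6 (wild-type, filled) and animal 5 (Gch1fl/flTie2cre, open) minus the mean of the other animals of the same group (y axis) for each probe (x axis), at 0, 2, 8 and 24 h from left to right. All 8 points of Rac2 lie below 0, as do all 8 of Sod2.

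The other oxidase genes were measured in part. Of 15 listed, 6 had a tested probe. Cybc1, whose product is a chaperone of the membrane heterodimer, fell at 2 h, at −0.82 ± 0.17 for wild-type and −0.65 for Gch1fl/flTie2cre cells. It then rose, to 1.35 and 1.41 above 0 h at 8 h, followed by 1.46 and 1.41 at 24 h (limma adjusted p = 2.12e-06 and 3.13e-06 at 24 h). Nox1, a catalytic subunit best known in colon epithelium, rose at 2 h by 1.01 in each genotype. At 24 h it was not well above background on any array. Against 0 h, without normalization between arrays, it was at least 2.68-fold lower in wild-type macrophages. In those of the other genotype it was at least 3.54-fold lower on the same scale. Hvcn1, the proton channel gene that balances charge during the burst, fell at 8 h in Gch1fl/flTie2cre cells, at −0.92 ± 0.30 (limma adjusted p = 0.0197). Rac1 fell at 24 h in Gch1fl/flTie2cre cells, at −0.90 ± 0.17 (limma adjusted p = 0.000527). Neither gene passed in wild-type cells at the same time. Between the genotypes 0 of the 6 passed at any time, and the difference of the responses passed for 0 of the 6. Of all tested probes, at most 0.321% and 0.0121% passed in these comparisons.

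Of 17 regulators of Rac and the oxidase, 14 were tested. At 2 h 0 rose and 2 fell in each genotype, Arhgap25, which encodes a Rac GTPase activating protein of phagocytes, at −1.92 and −2.25, and Prkcd, the gene of a kinase that phosphorylates p47phox, at −0.80 and −0.59, against 8.39% and 9.68% of all probes that fell. At 24 h 4 rose and 4 fell in wild-type cells, and 2 rose and 3 fell in Gch1fl/flTie2cre cells, where 16.5% and 15.8%, and 16.8% and 15.8%, of all probes did. Prex1, a Rac exchange factor gene, rose at 8 h by 1.24 and 1.38. Arhgap15, another Rac GTPase activating protein gene, fell at 24 h, at −2.48 ± 0.32 in Gch1fl/flTie2cre cells. In wild-type cells, where it was not well above background, it was at least 4.53-fold lower without normalization between arrays. Of 6 genes of the remaining dismutase and of metal delivery, 5 were tested, without Sod3. Slc31a1, the copper importer gene, rose at 8 h by 0.88 ± 0.14 and 0.66, and Atox1, a copper chaperone gene, fell at the same time, at −0.85 ± 0.16 and −0.64.

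Of 10 genes of enzymes that remove peroxide, 8 were tested. At 8 h 0 rose and 3 fell in each genotype, namely Gpx1 with −1.13 and −1.27, Cat, the catalase gene, with −0.70 and −1.27, and Prdx3, the mitochondrial peroxiredoxin gene, with −0.76 and −1.05 (wild-type first), against 16% and 17.9% of all probes that fell. Each gene of these lists was counted by its brightest tested probe. Over all 65 tested probes of their 41 genes, Cat was the one gene that passed between the genotypes. Of all tested probes, 0.0242%, 0.0242%, 0.0182% and 0.321% passed at 0, 2, 8 and 24 h. At 24 h Cat was lower in Gch1fl/flTie2cre cells, at −1.69 ± 0.27 (limma adjusted p = 0.00907), and the dimmer probe of Prdx1, a peroxiredoxin gene, differed by −2.11 ± 0.50 (limma adjusted p = 0.0651). Of 12 factors named for transcription of oxidase genes or Sod2, 8 were tested. Irf8 rose at 2 h by 3.40 ± 0.30 and 3.46, and Spi1, the gene of PU.1, fell at 24 h, at −0.73 ± 0.22 and −0.93 (limma adjusted p = 0.0146 and 0.00296).

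The genes whose course was most like that of each member were sought by Pearson correlation over the 24 arrays, among 8868 other genes, as a description with no test, since the arrays share their animals and times. They were Atp10d for Cybb (r = 0.867), Pde4dip for Cyba (0.888), Phf10 for Ncf1 (0.807), Arl14ep for Ncf4 (0.914), Aoah for Rac2 (0.926), Ceacam2 for Sod1 (0.949) and Fcgr2b for Sod2 (0.896), each by its brightest probe. Among the members themselves the RefSeq probes of Rac2 and Sod1 had the most negative correlation, at r = −0.799, and Rac2 and Sod2 had the highest between different genes, at 0.71. Rac2 and Sod2 were lowest in animal 5 or 6 in 8 and 7 of 8 groups, and the Sod1 RefSeq probe was highest in 6. The part of these animals in the correlations was not tested.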

How the data were processed

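RNA of 24 macrophage cultures was biotin-labelled and hybridized to Illumina mouse arrays by the authors. They deposited the raw intensity of every probe, its detection p-value, and values normalized by VSN on a log2 scale. The submitters' processing notes name R 2.14 and limma. The raw intensities were processed here with neqc of limma, which estimated the background through the detection p-values and applied an offset of 16, quantile normalization and log2. The deposited log2 values served as an alternative. Probes with a detection p-value under 0.01 on at least 3 arrays were fitted in limma 3.58.1 with R 4.3.3 and statmod 1.5.0, as 8 group means, with Benjamini-Hochberg adjustment over the 16498 probes. Genes were assigned through GEO's platform annotation. The fit was tested on simulated data. The labels give each animal at all 4 times, so arrays are paired over time within an animal. They name no pairs of animals across the genotypes, and no such pairing was used. For the 6 animals the median r between times was 0.165 to 0.34, with a consensus correlation of 0.124. The members, lists and rules were chosen with earlier results of these data known. Every tested probe of the 7 genes was described, with up to 3 genes each way from each list and the most similar gene by correlation. Where a group lacked detection, "at least" compares against the higher of the array's lowest detected signal and the probe's own, after background correction. These bounds were not normalized between arrays, so they also carry differences in array brightness. Precision is limited by the 3 animals per genotype.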

Additional observations from a re-analysis of the deposited data

How the results depend on the processing

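Over 18 alternatives, 2929 of the single-probe results kept their side of the threshold, 57 no longer passed and 34 newly passed. Most of the 2929 passed in neither fit, so the 57 were lost from a far smaller number of passing results. The least stable was the fall of the Cybb clone probe from 2 to 8 h in wild-type cells, lost under 9 of the 18. The sign turned in 136 results, all of which failed to pass in both fits. The largest of these before the turn was the 24 h minus 8 h difference of Cyba in wild-type cells, 0.57, which was −0.04 on the values normalized by the authors. The number of member probes past the threshold at 2 h, 1 in each genotype, was 0 in each with the values normalized by the authors and without background correction, and 2 in each with no minimum fold. In the first pair of settings the Sod1 clone probe kept its direction at a smaller fold. At 24 h in wild-type cells 4 passed, against 2 with no filter on detection and 1 with only the groups compared in the fit. Between 2 and 8 h these settings gave 1 and 1 in wild-type cells (3 in full) and 2 and 2 in Gch1fl/flTie2cre cells (4 in full). Between 8 and 24 h in wild-type cells Cyba passed, making 1, without background correction, with array weights, with no minimum fold and with animals 1 to 4 only, and with no minimum fold 2 passed in Gch1fl/flTie2cre cells (1 in full). Leaving out 1 animal at a time gave 2 to 4 at 24 h in wild-type cells, 2 to 5 at 8 h (3 in full, 5 without animal 5), 1 to 3 at 8 h in Gch1fl/flTie2cre cells (1 without animal 1 or 4) and 0 to 1 between the genotypes at 8 h. The lowest wild-type count at 24 h came without animal 3 or 6. From 2 to 8 h it gave 1 to 3 in wild-type (1 without animal 2) and 2 to 4 in Gch1fl/flTie2cre cells (2 without animal 1 or 4), and from 8 to 24 h 0 to 1 in wild-type cells (1 without animal 3 or 6). The genotype count at 8 h was 1 with array weights (the Sod1 clone probe, −1.01, limma adjusted p = 0.0167) and 1 with animals 1 to 4 only, a setting chosen after seeing the data. Without the replicate block for animals, 3 probes passed in wild-type cells at 24 h, and with the animal as a fixed block 4 passed at 8 h, Rac2 being added (limma adjusted p = 0.00347); neither moved a count by over 1.5 times. The normalized values of the authors shifted the median of all tested probes at 2 h in Gch1fl/flTie2cre cells to −0.117. The raw signal of Cyba and Sod2 reached 92.0 and 91.8% of the highest on an array, and the Sod1 clone probe lay near background. What part this had in their results was not tested.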
